A study of Homo sapiens with 12 samples.

Results

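The 8 human microRNAs described here are hsa-miR-197-3p, hsa-miR-574-3p, both arms of miR-671 (hsa-miR-671-5p and hsa-miR-671-3p), hsa-miR-874-3p, hsa-miR-1180-3p, hsa-miR-1247-3p and hsa-miR-935. They were taken by name, as 8 of the 1451 features in the small RNA table, because their counts were lower after bufotalin in these same libraries. Their difference between the groups is therefore a description and carries no test. The series is titled as one on cells, but every sample is labelled as a xenograft of the liver cancer line Hep3B. Control tumours were set against tumours given bufotalin, a bufadienolide cardiac glycoside found in toad venom. Each group had 3 small RNA libraries and 3 total RNA libraries, with no other agent or genotype given for either. The labels do not state dose, duration, host strain or age, nor whether replicates are separate animals. The p-values therefore measure the spread among these libraries alone, and that spread may be technical. A xenograft also holds blood and stromal cells of its host, and many mature miRNAs are identical between mammals, so tumour and host molecules cannot be told apart in these counts.

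A microRNA is cut from a hairpin transcript by DROSHA with DGCR8 in the nucleus and by DICER1 in the cytoplasm, and 1 or both arms of the hairpin are then loaded into an Argonaute protein. The loaded strand pairs with messenger RNAs mainly through its seed, bases 2 to 8 from the 5′ end, and lowers their stability or translation. Many hairpins lie inside the transcript of another gene, the host gene, and can be made from the same primary RNA. In liver cancer, miR-1180-3p has been reported to act on inhibitors of the NF-kB pathway and miR-1247-3p to be exported in vesicles, while miR-671-5p is known for directing cleavage of the circular RNA CDR1-AS.

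The mature sequences are shown because the seed decides which targets a microRNA can pair with, and because their base composition bears on the measurements given further on. They are from RefSeq (GRCh38.p14), 5′ to 3′, with the seed in capitals.
miR-197-3p: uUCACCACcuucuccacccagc
miR-574-3p: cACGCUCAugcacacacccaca
miR-671-5p: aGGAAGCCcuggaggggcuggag
miR-671-3p: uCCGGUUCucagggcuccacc
miR-874-3p: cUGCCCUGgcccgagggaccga
miR-1180-3p: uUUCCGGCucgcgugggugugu
miR-1247-3p: cCCCGGGAacgucgagacuggagc
miR-935: cCAGUUACcgcuuccgcuaccgc
The 8 seeds were all different. Of the 1231 features of the table with a RefSeq sequence, 0 others shared a seed with any of them, so the group is no seed family. The sequences were 21 to 24 bases long. Their GC content was 59.1% (13 of 22 bases) in miR-197-3p and miR-574-3p, 63.6% in miR-1180-3p, 65.2% in miR-935, 66.7% in miR-671-3p, 69.6% in miR-671-5p, 70.8% in miR-1247-3p and 77.3% in miR-874-3p. The kind of base differed: miR-197-3p held 12 C and 1 G, whereas miR-671-5p held 12 G and 4 C.

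The hairpins of miR-574 and miR-1247 are shown because both arms were counted in all 6 libraries and only the 3p arm is a member, with the mature arms in capitals. They lie on chromosome 4 from 38868032 to 38868127 (plus strand) and on chromosome 14 from 101560287 to 101560422 (minus strand), and are printed 5′ to 3′ with the 5p arm first.
MIR574: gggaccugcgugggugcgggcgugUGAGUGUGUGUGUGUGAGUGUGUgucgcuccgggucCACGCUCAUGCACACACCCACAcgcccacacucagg
MIR1247: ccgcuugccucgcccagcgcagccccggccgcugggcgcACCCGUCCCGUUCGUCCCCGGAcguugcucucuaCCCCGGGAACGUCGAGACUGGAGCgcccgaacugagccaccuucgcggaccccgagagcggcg
The 2 arms of miR-574 differ in composition, with a GC content of 47.8% in the 5p arm and 59.1% in the 3p arm. Those of miR-1247 are alike, at 72.7% and 70.8%.

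On GRCh38.p14 the 8 mature arms came from 7 loci on 7 chromosomes, so the group is no genomic cluster. MIR574 starts 226 bases after the start of FAM114A1 on the same strand. MIR1180 (chromosome 17, 19344506 to 19344574) lies within B9D1, MIR874 (chromosome 5, 137647572 to 137647649) within KLHL3 and MIR671 (chromosome 7, 151238421 to 151238538) within CHPF2, each on the strand of its host gene. MIR197 (chromosome 1, 109598893 to 109598967) lies within the RefSeq extent of GNAI3 on the same strand, and MIR935 (chromosome 19, 53982307 to 53982397) within CACNG8. MIR1247 lies at the edge of DIO3OS, a long non-coding RNA on the same strand, and 1073 bases from DIO3 on the opposite strand.

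The small RNA libraries held 1869893 to 4197636 counts. Levels are in CPM, the count over the library's total on the usual scale, and intervals and floors cover counting error only. Levels, gaps and orders of libraries use no further scaling, whereas the edgeR fits also scale each library by a TMM factor. That factor was 1.07, 1.32 and 0.83 in control replicates 1, 2 and 3. It was 1.07, 0.99 and 0.81 in bufotalin replicates 1, 2 and 3. A higher factor lowers the scaled level. One library stood apart: the bufotalin replicate 2 library held 34779 CPM of the erythroid miR-451a, against 139 to 404 CPM in the other 5. The summed erythroid list was 341 to 503 CPM in control and 359 to 38593 CPM in bufotalin libraries. The leukocyte list was 2.46 to 11.2 and 7.36 to 236 CPM, and the muscle list 50.6 to 90.8 and 57.8 to 421 CPM. The fibroblast list was higher in every treated library (706 to 752 CPM, against 124 to 545 CPM). The endothelial list was lower in every one (1599.6 to 1979.99 CPM, against 2018 to 2240.4 CPM). By edgeR 0 of 4 tested fibroblast markers and 0 of 2 tested endothelial markers were called. The fitted log2 fold changes of the endothelial miR-126-3p and miR-126-5p were -0.15 and -0.60. The summed liver list overlapped between groups, at 96917 to 227991 CPM in control and 109331 to 177741 CPM in treated libraries. Nearly all of this sum was miR-148a-3p, with an average log2 CPM of 17.2. That average was 10.2 for miR-192-5p, 8.53 for miR-194-5p and 5.49 for miR-122-5p, and miR-885-5p had a mean of 0.0981 CPM. Within the liver list the hepatocyte-defining miR-122-5p was at 23.3 to 116 CPM in control and 15.4 to 36.4 CPM in treated libraries. miR-192-5p had a log2 fold change of 0.84, which did not pass (adjusted p 0.0823 by edgeR). No listed marker was at 0 in all libraries, and the part of these cell types in the results below was not tested. In such bulk tumours, fewer cells of a type and less RNA per cell cannot be told apart.

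Among the more abundant members, hsa-miR-197-3p was counted at 648, 2699.6 and 1768 CPM in control replicates 1, 2 and 3 and at 309, 281 and 319.8 CPM in bufotalin replicates 1, 2 and 3. In CPM the control libraries were far apart, with replicate 1 lowest and replicate 2 highest. The treated libraries were close together and all below them. The mean was 1705 ± 1027 CPM in control and 303 ± 19.8 CPM in treated libraries (SD, n = 3), and the log2 fold change (bufotalin over control, from the edgeR fit) was -2.30 (SE 0.45).

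hsa-miR-574-3p was at 577, 1284 and 1066 CPM in control and at 271, 275 and 187 CPM in treated libraries. Again control replicate 1 was the lowest control, and it still lay 2.10-fold above the highest treated library. The fitted log2 fold change was -1.87 (SE 0.35). hsa-miR-1180-3p was at 872, 1145 and 831 CPM in control and at 421, 339 and 267 CPM in treated libraries. In CPM it varied least between controls (coefficient of variation 18.0%, against 60.3% for miR-197-3p). It had the smallest difference of the 8, with a log2 fold change of -1.33 (SE 0.27).

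The other 5 were lower in level. hsa-miR-671-3p was at 102, 58.4 and 67.3 CPM in control and at 21.9, 15.9 and 9.81 CPM in treated libraries. The opposite arm, miR-671-5p, was at 40.5, 71.1 and 42.8 CPM and at 12.3, 4.19 and 7.71 CPM. The arms took a different order within each group, but for both every treated library lay below every control, with gaps of 2.66-fold for the 3p arm and 3.29-fold for the 5p arm. Their log2 fold changes were -2.18 (SE 0.40) and -2.52 (SE 0.44), the latter the largest of the 8.

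miR-1247-3p was at 46.2, 57.5 and 37.4 CPM in control and at 12.8, 3.89 and 9.81 CPM in treated libraries (log2 fold change -2.25, SE 0.45). miR-874-3p, which has been reported to target STAT3 and the water channel AQP3, was at 48.1, 57.9 and 20.6 CPM and at 12.3, 4.49 and 4.90 CPM (-2.39, SE 0.46). miR-935 was at 19.3, 37.0 and 20.6 CPM and at 8.56, 4.49 and 3.85 CPM (-2.04, SE 0.42). The groups did not overlap for any of these. The gap in CPM, without the TMM factors, was narrow for miR-874-3p, where control replicate 3 was 1.68-fold above bufotalin replicate 1. The treated values rest on few counts: 14 to 23 per library for miR-874-3p and 11 to 16 for miR-935, against a floor of 3 counts.

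**Figure D1:**
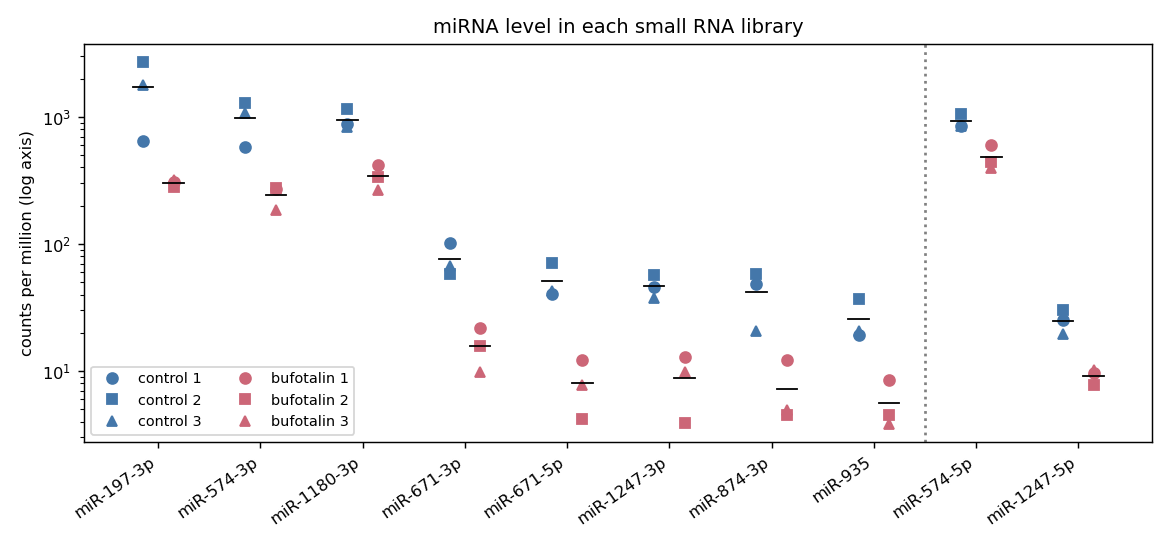
CPM (log axis) of the 8 miRNAs and, right of the dotted line, of the opposite arms miR-574-5p and miR-1247-5p in each small RNA library; circles, squares and triangles are replicates 1, 2 and 3, and bars are group means. For each miRNA the 3 bufotalin libraries lie below the 3 control libraries.

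In control libraries the order of mean levels was miR-197-3p, miR-574-3p, miR-1180-3p, miR-671-3p, miR-671-5p, miR-1247-3p, miR-874-3p and miR-935. Only the step from miR-1180-3p to miR-671-3p (949 ± 171 to 76.0 ± 23.1 CPM) separated neighbours beyond their ranges. In treated libraries miR-1180-3p (343 ± 77.1 CPM) stood above miR-197-3p and miR-574-3p (244 ± 49.6 CPM) in the means, with ranges that overlapped those of both. Mature miRNAs are of nearly equal length, so these counts are comparable per length. Whether sequence otherwise affects the counts of different miRNAs was not tested, so the order is one of counts only. In CPM, control replicate 2 was the highest control for 7 of the 8, and bufotalin replicate 1 the highest treated library for 6. Control replicate 2 also had the highest TMM factor, so this order of libraries depends on the scaling.

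Over all 477 miRNAs tested with edgeR's quasi-likelihood test, 27 were called (5.66%), 17 lower (3.56%) and 10 higher (2.1%). All 8 members are among the 17 because that contrast chose them. Among all tested miRNAs 52.8% had a log2 fold change below 0. All treated libraries lay below all controls for 19.5% and above them for 7.76%. By log2 fold change the members ranked 5, 7, 9, 10, 12, 13, 15 and 37 from the lowest, and their median was -2.22 against -0.04 over all tested. Without bufotalin replicate 2, the library rich in miR-451a, the members' log2 fold changes were -2.21 to -1.30. The number of members called was 1 without it, 5 without bufotalin replicate 1 and 0 without bufotalin replicate 3, against 8 with all 6 libraries. It was 2 with the GC content offset described further on and 0 with replicate number as a block. These counts describe miRNAs chosen on the same contrast and are no support for their difference.

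**Figure D2:**
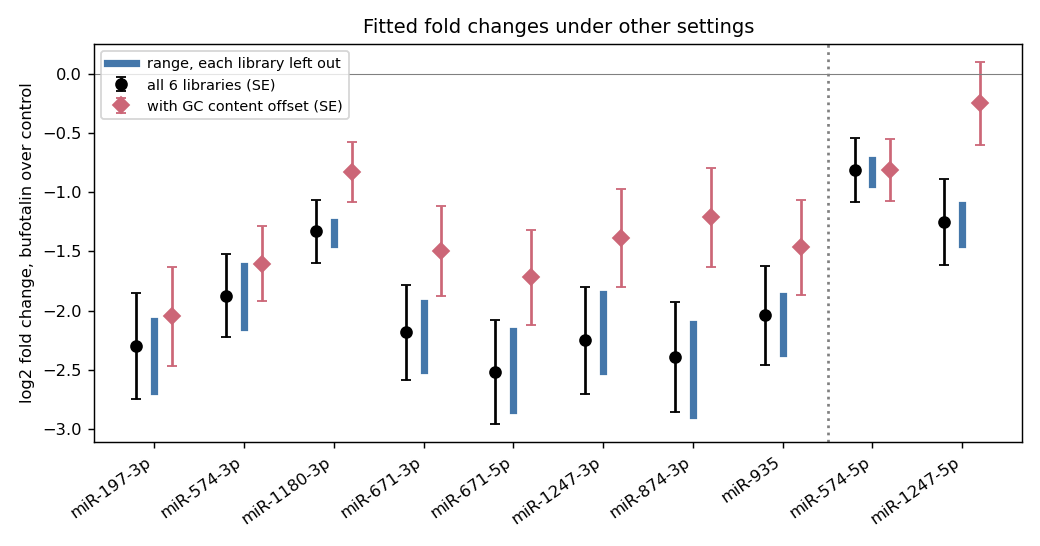
Log2 fold change of bufotalin over control for the 8 miRNAs and the opposite arms miR-574-5p and miR-1247-5p. Black points are the fit to all 6 libraries (bars, SE), blue bars the range when each library is left out, red diamonds the fit with a GC content offset (bars, SE); the 8 miRNAs stay below 0 in each, and the offset moves miR-874-3p from -2.39 to -1.21.

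The opposite arms of the same hairpins were not used to choose the members, but share the hairpin and the libraries with them. miR-574-5p was at 853, 1053 and 855 CPM in control and at 596, 444 and 398 CPM in treated libraries, without overlap. Its log2 fold change was -0.81 (SE 0.27) and did not pass (adjusted p 0.0928 by edgeR's quasi-likelihood test). miR-1247-5p was at 25.01, 30.2 and 19.7 CPM in control and at 9.63, 7.79 and 10.2 CPM in treated libraries. It too did not overlap and did not pass (log2 fold change -1.25, SE 0.36, adjusted p 0.0704 by edgeR). Its call was made by DESeq2 (-1.21), and its value shrank to -0.25 with a GC content offset.

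The remaining opposite arms were too rare to test. miR-1180-5p was counted 6, 1 and 7 times in control replicates 1, 2 and 3, miR-874-5p 1, 6 and 0 times, and miR-197-5p 0, 3 and 0 times, and all were counted 0 times in the 3 treated libraries. A count of 0 allows up to 0.898 to 1.604 CPM in a treated library. No opposite arm of miR-935 was in the table.

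The 5p arm of miR-574 made up 59.7%, 45.1% and 44.5% of the counts of both arms in control and 68.8%, 61.8% and 68.0% in treated libraries. Control replicate 1 stood near the treated libraries: its 95% exact (Clopper-Pearson) interval, 58.4% to 60.9%, overlapped that of bufotalin replicate 2, 59.8% to 63.7%. For miR-1247 the 5p share was 35.1%, 34.4% and 34.5% in control and 42.9%, 66.7% and 50.9% in treated libraries, on only 39 to 57 counts in each of the latter. For miR-671 the shares overlapped between groups, from 28.4% to 54.9% in control and from 20.9% to 44.0% in treated libraries. For miR-574 and miR-1247 the shares did not overlap between groups. In these hairpins only the arm opposite the 5p arm is a member, chosen for its lower counts after bufotalin. That choice by itself favours a higher 5p share in treated libraries. Both arms of miR-671 are members, and its shares showed no such split. The shares are therefore a description, and their difference was not tested.

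**Figure D3:**
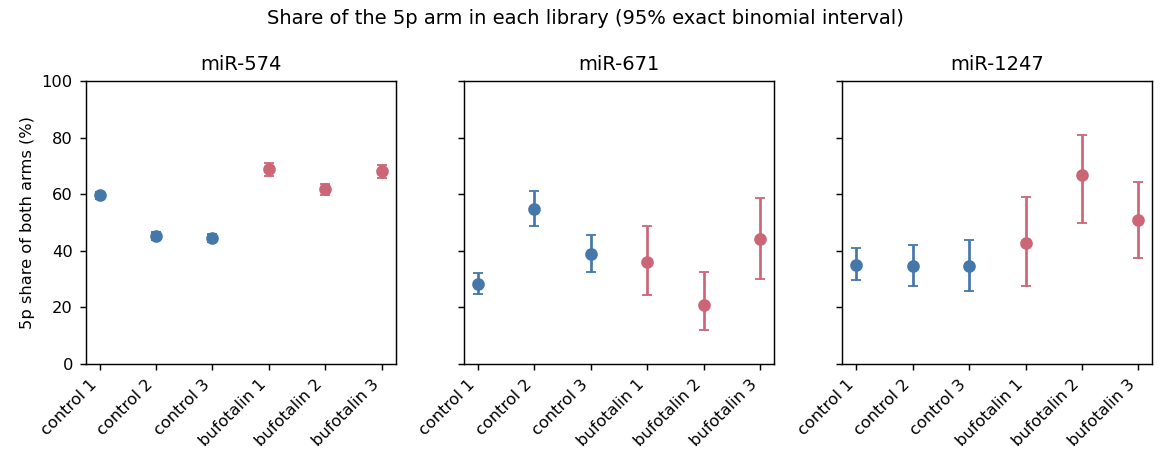
Share of the 5p arm among the counts of both arms (percent) of miR-574, miR-671 and miR-1247 in each small RNA library, with 95% exact binomial intervals for counting error. For miR-574 the bufotalin libraries lie at 61.8% to 68.8% and the control libraries at 44.5% to 59.7%. In miR-574 and miR-1247 the other arm was chosen for lower counts after bufotalin, which favours a higher 5p share in the bufotalin libraries.

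A feature the members share, and which did not choose them, is a high GC content. All 8 were in the top quartile of the 421 tested miRNAs with a RefSeq sequence, with a median GC content of 65.9% against 47.8%. The trait is not particular to them: the 7 other miRNAs called lower that have a sequence had a median of 65.0% (40.9% to 83.3%), and 6 of these 7 were in the same quartile. In that group (57.9% to 84.2% GC) 71.6% of miRNAs had a log2 fold change below 0, and the median was -0.46, or -0.40 over the 94 that are not members. The quartile with the lowest GC content (12.5% to 40.9%) had a median of 0.25, with 35.4% below 0. Across the 421 miRNAs GC content and log2 fold change had a Pearson r of -0.38 and a Spearman rho of -0.32, as a description, since all share the same 6 libraries.

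The top quartile, members included, was shifted in every library. Relative to each miRNA's mean over the 6 libraries on the log2(CPM + 1) scale, its median was 0.25, 0.55 and 0.35 in control replicates 1, 2 and 3 and -0.17, -0.30 and -0.46 in bufotalin replicates 1, 2 and 3. For the lowest quartile the same medians were 0.01, 0.31 and -0.42, and 0.15, 0.06 and -0.14, without such a split. A shift with GC content thus moved with treatment in these libraries.

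The members can be set beside other miRNAs as rich in GC, bearing in mind that they were chosen for low values. The 90 tested miRNAs that are not members and have a GC content of at least 59.1%, the lowest of the 8, had a median of -0.42, and 63 of them were below 0. With an offset for each library's trend with GC content, the log2 fold change of miR-874-3p was -1.21 (SE 0.42) in place of -2.39, that of miR-1247-3p -1.39, of miR-671-5p -1.72, of miR-671-3p -1.50, of miR-935 -1.47 and of miR-1180-3p -0.83. miR-197-3p and miR-574-3p, with the lowest GC content of the 8, moved least, to -2.05 and -1.60. The offset left the members' median at -1.48. On the same miRNAs without the offset it was -2.24. The offset removes any change that follows GC content, of whatever origin.

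**Figure D4:**
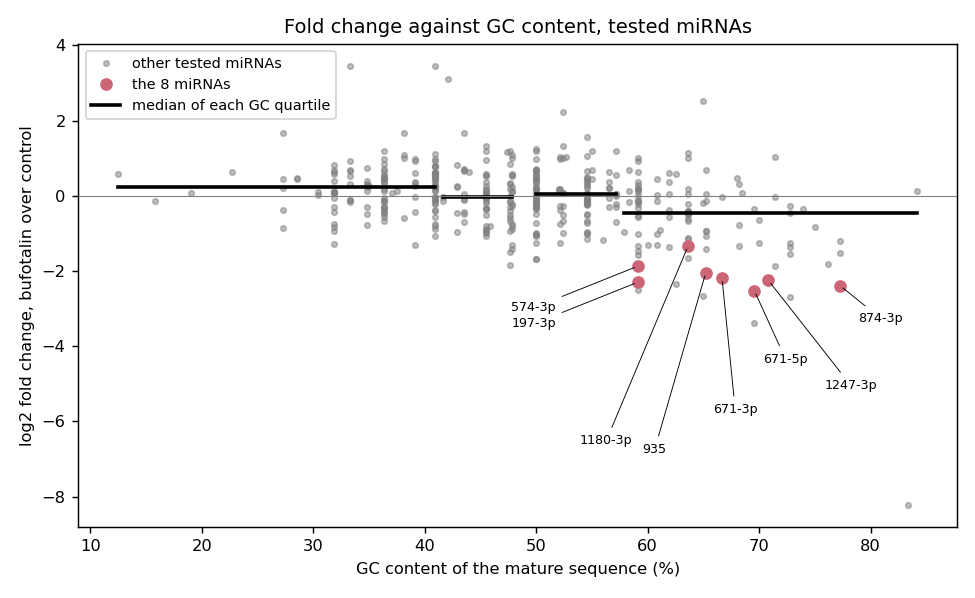
Log2 fold change of bufotalin over control against GC content of the mature sequence (percent) for 421 tested miRNAs; red points are the 8 miRNAs, grey points the others, and black bars the median of each GC quartile. The 8 lie at 59.1% to 77.3% GC and below the median of their quartile, -0.46.

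Among all miRNAs with a mean of at least 10 CPM, 358 besides the members, miR-574-5p was most like the members' mean profile over the 6 libraries (Pearson r 0.988 on the log2(CPM + 1) scale). It was followed by miR-27b-5p (0.973), miR-4454 (0.973), miR-7-1-3p (0.968) and miR-769-3p (0.967). These likenesses include the difference between the groups, on which the members were chosen. Of the 5, miR-4454 passed the test and the other 4 had adjusted p of 0.0744 to 0.0977 by edgeR. Each member's own r with the mean of the other 7 was 0.89 (miR-197-3p) to 0.99 (miR-935).

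Host genes were read in separate total RNA libraries, in a table of 4988 genes that the authors had selected as different on those libraries. Of 4273 genes tested there with limma, 93.2% were called, 48.8% lower and 44.3% higher, so a call in this table is not independent evidence. FAM114A1 (ENSG00000197712), the host of miR-574, was at 32.6, 25.3 and 31.9 FPKM in control and at 9.44, 7.86 and 8.39 FPKM in treated libraries. It fell from 30.0 ± 4.02 to 8.56 ± 0.803 FPKM, a log2 fold change of -1.69 (SE 0.13, adjusted p 4.26e-06 by limma), and 4.49% of tested genes were called with as low a value. B9D1 (ENSG00000108641), which encodes a protein of the ciliary transition zone and hosts miR-1180, was at 14.8, 16.3 and 15.1 FPKM in control and at 2.15, 2.26 and 1.58 FPKM in treated libraries.

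B9D1 fell from 15.4 ± 0.807 to 2.00 ± 0.368 FPKM (log2 fold change -2.46, SE 0.12, adjusted p 8.73e-07 by limma), and 0.585% of tested genes were called with as low a value. The log2 fold changes of the hosts and their miRNAs had the same sign, at -1.69 beside -1.87 and -0.81 for the 3p and 5p arms of miR-574, and of -2.46 beside -1.33 for miR-1180-3p. Whether the numbers of the total RNA and small RNA libraries mark the same tumours was not given, so no relation across samples was computed.

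KLHL3, the host of miR-874 and a substrate adaptor of a ubiquitin ligase, was at 0.460, 0.377 and 1.00 FPKM in control and at 0.152, 0.0874 and 0.134 FPKM in treated libraries. DIO3, the thyroid hormone deiodinase beside miR-1247, went the other way, with 0.235, 0.230 and 0.208 FPKM in control and 0.440, 0.720 and 0.744 FPKM in treated libraries. Both lay under the mean of 0.5 FPKM required for the test. In the fit without this minimum KLHL3 fell (-0.50, adjusted p 0.00687 by limma) and DIO3 rose (0.41, adjusted p 0.00177 by limma). The DIO3OS-204 transcript, which reaches into MIR1247 (chromosome 14, 101557308 to 101560403), was listed at 0 in the 3 control libraries and at 0.239, 0.566 and 0.151 FPKM in treated libraries, the opposite direction to miR-1247-3p. Total RNA depth is unknown and strandedness was not given. The extents listed for DIO3 (101561351 to 101563452) and for DIO3OS-204 do not overlap. CHPF2, CACNG8, GNAI3 and GNAT2 were not listed in the mRNA table, so the hosts and neighbours of miR-671, miR-935 and miR-197 gave no value.

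**Figure D5:**
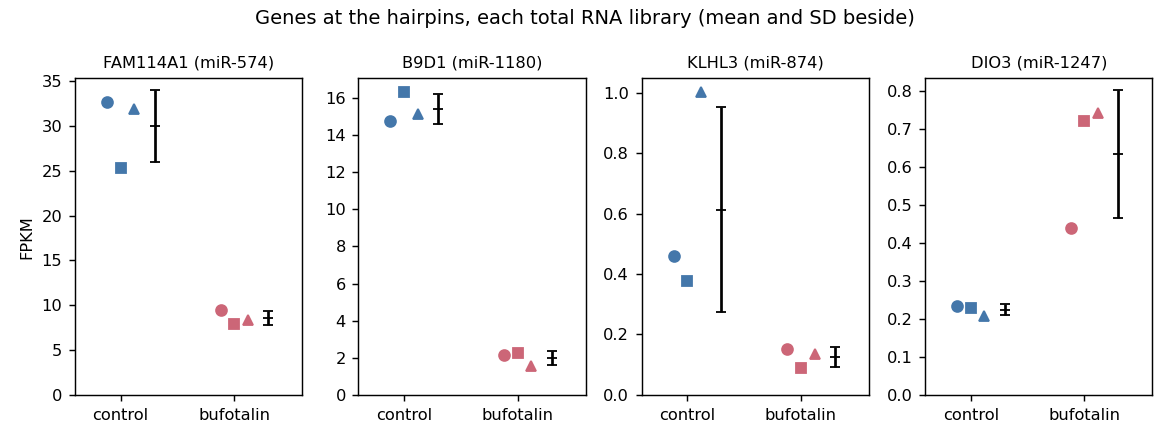
FPKM of FAM114A1, B9D1, KLHL3 and DIO3, with the miRNA of the locus in brackets, in each total RNA library (circles, squares and triangles are replicates 1, 2 and 3; the bar beside them is mean and SD). FAM114A1, B9D1 and KLHL3 are lower and DIO3 is higher in each bufotalin library; the vertical scales differ.

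Of 28 genes of miRNA processing and silencing, 9 were in the selected table. Of these, 8 rose and 0 fell by limma (all 9 had a log2 fold change above 0), beside 44.3% and 48.8% over the table, with a median log2 fold change of 0.53 against 0.13. SRSF3, a splicing factor that aids hairpin recognition, rose from 25.3 ± 4.75 to 48.3 ± 4.74 FPKM (0.92). AGO2, the Argonaute protein that can cut its target, rose from 22.1 ± 2.08 to 38.1 ± 9.11 FPKM (0.74). The DICER1 partner gene TARBP2 rose from 11.5 ± 0.278 to 17.6 ± 2.02 FPKM (0.56), and DDX5, a helicase of the DROSHA complex, from 89.6 ± 6.82 to 130.1 ± 10.8 FPKM (0.53). Only 5 passed under quantile normalization, where DDX5 lost its call (0.29, adjusted p 0.0530 by limma). The count was also 5 without control replicate 3, without bufotalin replicate 3, and when replicate number entered as a block. DROSHA, DGCR8 and DICER1 were not listed.

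Of 26 genes reported elsewhere as targets of the 8 miRNAs, 10 were in the table: 5 rose, 1 fell and 4 did not pass, with a median log2 fold change of 0.35 against 0.13. Of all genes tested there, 44.3% were called higher and 48.8% lower, so 5 of 10 higher is near the table's own share. RXRA, a nuclear receptor reported as a target of miR-574-3p, was at 20.0, 18.6 and 20.5 FPKM in control and at 44.6, 42.8 and 43.5 FPKM in treated libraries (log2 fold change 1.11, adjusted p 1.00e-05 by limma). E2F3, a cell cycle transcription factor reported as a target of miR-874-3p, rose from 11.9 ± 1.38 to 18.4 ± 0.934 FPKM (0.60). OTUD7B, a deubiquitinase reported as a target of miR-1180-3p, rose from 5.76 ± 0.0222 to 8.33 ± 0.566 FPKM (0.46). All 5 genes that rose lay higher in every treated library than in any control. They were picked as called higher in a table already selected as different, so this is no result about targets. The share of such genes over the whole table was not computed.

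CD82, a tetraspanin reported as a target of miR-197-3p, fell from 4.08 ± 0.469 to 0.515 ± 0.201 FPKM (-1.75, adjusted p 3.80e-06 by limma), the same direction as the miRNA. Its value was -2.81 with a pseudocount of 0.1 and -1.08 under quantile normalization. For OTUD7B the latter gave 0.82. The other rises were EP300 (0.35, adjusted p 0.0280 by limma) and RAC1 (0.27, adjusted p 0.0349 by limma), which lost their calls in 3 and 7 of the 10 other settings. TNIP2 (0.34), EGFR (0.41), FOXM1 (0.13) and CKS1B (0.01) did not pass. TNIP2 passed in 4 other settings: quantile normalization (0.52), the replicate block (0.34), and without control replicate 2 (0.48) or bufotalin replicate 3 (0.47). EGFR passed without control replicate 1 (0.69, adjusted p 0.00269 by limma). The count of 5 rises fell to 3 without bufotalin replicate 2. STAT3, AQP3, SMARCB1 and B4GALT3 were among the 16 listed targets with no row in the table, and these data hold no measurement of pairing between a miRNA and a target.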

How the data were processed

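The deposited small RNA table gives a count for each mature miRNA in each library. Its deposited TPM values carry no length correction and equal CPM (largest difference 4.37e-10). The authors also deposited FPKM values for mRNA genes and lncRNA transcripts labelled as differential. The sources used here name neither their selection rule nor the tool that counted miRNAs. Per the labels' protocols, TRIzol and a NEBNext Ultra RNA kit were used for both kinds of library. The submitters' processing notes name CASAVA 1.8, fastp, HISAT2 2.0.5, featureCounts 1.5.0-p3, DESeq2 1.20.0 and GRCh38.

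Counts were fitted with edgeR 4.0.16 (TMM, filterByExpr by group, robust quasi-likelihood test), and FPKM values with limma 3.58.1 (trended, robust) on log2(FPKM + 1), keeping genes whose mean reached 0.5 FPKM. Fold changes on that scale understate low genes. P-values were two-sided, adjusted by Benjamini-Hochberg over every feature tested, and called under 0.05. The GC content offset was a lowess trend (span 0.5) of log2 counts on GC content in each library, over the 88.3% of tested miRNAs with a RefSeq sequence. Both fits were tested on simulated data with independent noise between libraries, no trend with GC content and no outlier library. That test does not cover such features of these data. R 4.3.3, DESeq2 1.42.0, Python 3.11.15 and scipy 1.17.1 were also used. Of 4988 gene identifiers, 4968 matched the gene reference.

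The members and lists were chosen with earlier results of these data known. Named were the 8 members, the other arms of their hairpins, the 5 miRNAs of at least 10 CPM most like them, the host and neighbour genes, and up to 4 called genes of each list by smallest p; the other target genes in the table are given by value, chosen after their test was known. No member or opposite arm with at least 50 counts in all had counts within 5% of another feature in every library.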

Additional observations from a re-analysis of the deposited data

How the results depend on the processing

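All 8 members kept a log2 fold change below 0 in each of the 13 other settings, 104 values in all. Of these, 6 moved by more than the SD between replicates, all with the GC content offset (given above). The number of members called by edgeR was 2 with that offset, 0 when blocked on replicate number, and 0 to 8 with each library left out (5, 1 and 0 without bufotalin replicates 1, 2 and 3). The members were chosen on this contrast, so these counts are a description. The calls over all miRNAs were 62 with DESeq2 (37 lower, 25 higher), 3 with the replicate block (1 and 2), 11 with the GC offset (5 and 6), and 6 to 40 with each library left out (3 to 28 lower, 3 to 12 higher), against 27 (17 and 10). The lower calls were 27 with no filter on low counts. The higher calls were 5 when scaled by library totals instead of TMM, 23.8% of the calls against 37.0%, as the median over all tested moved from -0.04 to -0.20. They were 4 over only the miRNAs with a RefSeq sequence, a setting chosen after seeing the data. miR-1247-5p had -1.21 and a call with DESeq2 (adjusted p 0.0279, range over its settings 0.0279 to 0.739).

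The replicate numbers gave no clear sign of pairing. Same-numbered small RNA libraries had deviations correlated at 0.13, 0.03 and 0.36, and total RNA libraries at -0.02, 0.03 and -0.05. Number 3 of the small RNA and number 2 of the total RNA libraries correlated best with their own number in both groups. The other numbers did not. With 3 libraries per group this check cannot settle whether replicates were paired. FAM114A1 (-1.80 to -1.63) and B9D1 (-2.90 to -2.12) were called lower in all 10 other settings. Called pathway genes were 5 with quantile normalization, 5 with the replicate block and 5 to 9 with each library left out, and called higher targets 3 to 5. CKS1B, never called, had -0.26 under quantile normalization, and -0.0559, -0.0113, -0.0855 and -0.00576 without control replicates 1 and 2 and bufotalin replicates 1 and 2. RAC1 lost its call in 7 settings and had -0.0311 under quantile normalization. The cause of these changes was not tested. At 11 to 28 counts per treated library, the fold changes of miR-671-5p, miR-874-3p, miR-935 and miR-1247-3p are imprecise.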
